A study of Mus musculus with 9 samples.

Results

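CTCF binding in naive CD8+ T cells that lack Tcf1 and Lef1 was compared with binding in wild-type naive CD8+ T cells. The comparison rests on the 4 CTCF libraries taken at 0 h, out of 9 libraries in the series, and its members were chosen by sample title and not by any measured value. Binding was mapped by CUT&RUN, in which a nuclease held at the antibody-bound protein cuts out the DNA around it, so that sites of binding appear as peaks of released fragments. Peaks on chromosomes 1 to 19 were merged where they overlapped by at least 1 bp, which gave 37503 regions.

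The WT and DKO groups differ in their Tcf1 and Lef1 alleles. Both came from splenocytes of mice carrying hCD2-Cre and the Cre-dependent reporter Rosa26-lsl-GFP, so that both groups had undergone Cre expression in cells where the human CD2 regulatory sequence is active. Mice of the WT group had wild-type Tcf1 and Lef1 alleles. In DKO mice both genes were floxed, and the sorted cells are labelled Tcf1-/-Lef1-/-. Cells of both groups were sorted as GFP+ TCRbeta+ CD62Lhi CD44lo-med CD8+ and were used without time in culture. Each group had 2 libraries, and the series also holds 1 IgG library of WT naive cells. The titles number the replicates but do not state that these were separate animals, so any p-value here measures the spread between these libraries, which may be technical. Age and sex were not given in the labels used here, and a peak list holds no transcript levels by which the sorted cell type could be checked.

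CTCF is a zinc-finger protein that binds a long DNA motif, blocks the extrusion of chromatin loops by cohesin and thereby marks loop anchors and domain borders. Tcf1 and Lef1 are related HMG-box factors that bend DNA at their sites. They act throughout T cell development and maintain the identity and longevity of naive CD8+ T cells. The series title names cooperation of Tcf1 with CTCF as its subject, and the question of this comparison is where the CTCF peaks of naive cells differ when both factors are missing.

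The 4 lists were of similar length. WT replicates 1 and 2 held 31798 and 30234 peaks on chromosomes 1 to 19, and DKO replicates 1 and 2 held 29570 and 30647, and DKO replicate 2 lay between the WT replicates. Median peak width was 676 and 661 bp in WT and 697.5 and 696 bp in DKO. The IgG list held 2 peaks on these chromosomes, and 0 of the naive CTCF peaks overlapped them. The lists give no read totals. The deposited fold and −log10 p of a peak together fix the number of fragments over its summit, and the same steps gave each library's depth relative to its control: 1.88 and 1.96 in WT and 1.47 and 1.18 in DKO. This relative depth thus moved with genotype, and its part in the results below cannot be told apart from genotype at regions near the calling limit. The controls are not stated, so whether the ratio differed through the libraries or through their controls is not known.

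Most CTCF regions of naive cells were found with and without Tcf1 and Lef1. A peak was found in all 4 libraries at 23844 of 37503 regions (63.6%). These shared regions had a median fold enrichment over local background of 12.99 and 11.97 in the WT libraries and 12.7 and 13.2 in the DKO libraries. Another 1908 regions (5.09%), termed WT-only, were listed for each WT library but for no DKO library. In the other direction 1067 regions (2.85%) were DKO-only. Peaks in a single library made up 1589 and 1007 regions for the WT replicates and 1153 and 1750 for the DKO replicates. Pairs made of 1 library of each genotype accounted for 238 to 578 regions each, fewer than either genotype-specific class.

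**Figure D1:**
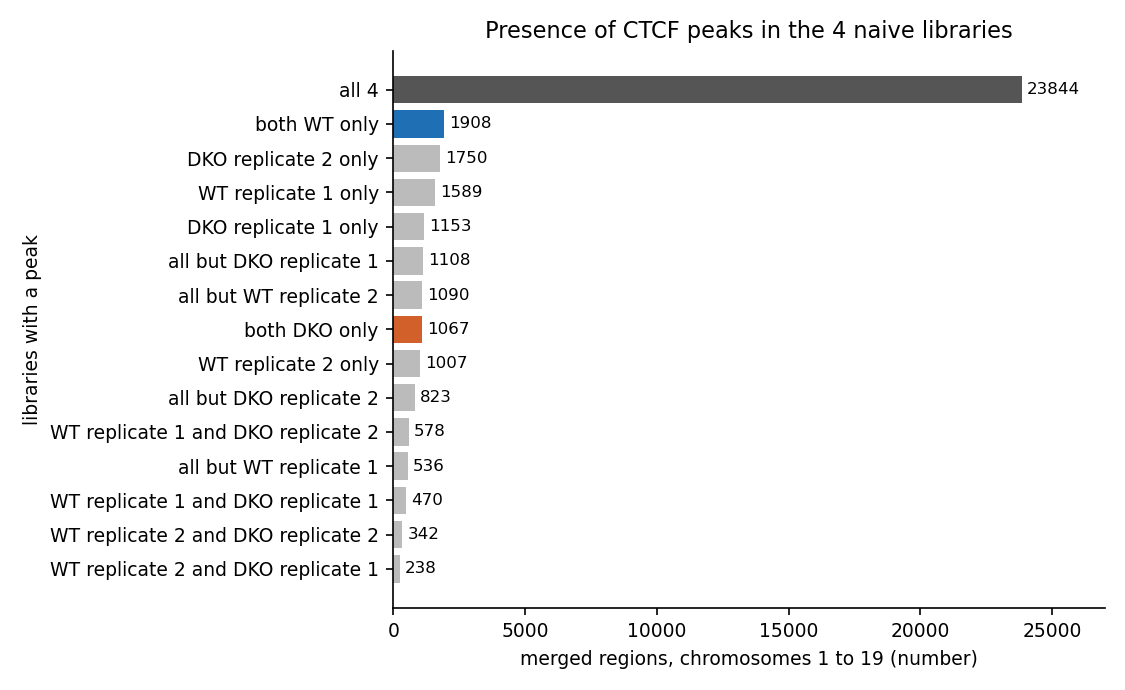
Number of merged regions on chromosomes 1 to 19 for each combination of the 4 naive libraries with a peak. The bar for all 4 libraries stands at 23844, the WT-only bar (blue) at 1908 and the DKO-only bar (orange) at 1067, while each pair that mixes the genotypes holds between 238 and 578 regions.

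Strong sites were almost all found in both genotypes. The 27683 regions with peaks in each WT library were ordered by their mean within-list percentile of fold. In the weakest decile, with a median fold of 5.10, 24.9% had a peak in neither DKO library and a further 24.8% in 1 of them. In the fifth decile (median fold 10.1) the share missing from both was 4.08%, and in the strongest decile (median fold 33.8) it was 0%, or 0 of 2769 regions. The 26537 regions with peaks in each DKO library showed the same order. Their weakest decile was missing from both WT libraries in 21.2% of cases and the fifth in 1.43%, and in the strongest decile 1 of 2654 regions (0.0377%) was missing.

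**Figure D2:**
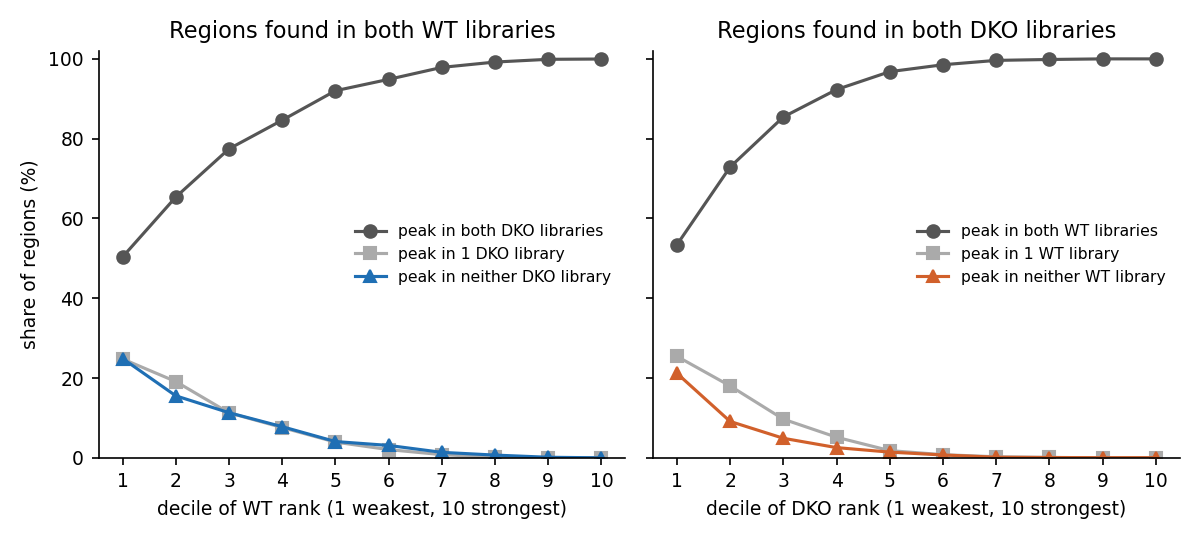
Share of regions with peaks in both libraries of a genotype (left WT, right DKO) that had a peak in both, 1 or neither library of the other genotype, by decile of rank from weakest (1) to strongest (10). The share found in neither falls from 24.9% to 0% for WT and from 21.2% to 0.0377% for DKO.

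WT-only regions were accordingly weak as a class. Their fold had a median of 6.36 in WT replicate 1 and 6.11 in replicate 2, with highest values of 27.3 and 23.8. The median number of fragments over the summit was 24 in each WT library. At equal binding these levels would correspond to a median of 17.99 fragments in DKO replicate 1 and 14.4 in replicate 2, where the weakest listed peaks held 8 and 7. At 60.1% and 51.9% of the 1865 WT-only regions with fragment numbers the equal level was at least 2 times that lowest listed number. That number is the lowest of the whole list, and a site of higher background needs more fragments to reach the same fold. These shares therefore do not show how many DKO peaks could have been listed. The part of depth in the absence of DKO peaks was not tested.

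A fold of at least 8 in both WT libraries was reached by 299 of the 1908 WT-only regions, a fold of at least 12 by 72 and a fold of at least 20 by 4. The highest-ranked was chr19:3730853-3731869 (all coordinates are mm9), where fold reached 22.3 and 23.8 in WT replicates 1 and 2, over 64 and 71 fragments at the summit. No peak was listed there in either DKO library. Next came chr9:40989331-40990072 (fold 23.97 and 20.9), chr6:120749624-120750375 (27.3 and 20.6) and chr4:148647054-148647764 (27.0 and 20.2). The other regions named by the same rule were chr4:154424149-154425112 (21.4 and 18.8), chr1:138497063-138497698 (19.9 and 19.6), chr13:46017680-46018547 (21.5 and 18.1) and chr15:36325539-36326907 (18.6 and 22.4). These 8 regions held 60 to 130 fragments over the summit in every WT library, in a class whose median was 24.

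DKO-only regions were fewer and weaker, apart from 1 exceptional site. Their median fold was 5.37 in DKO replicate 1 and 5.82 in replicate 2, with a median of 15 and 13 fragments over the summit. At equal binding the WT libraries would have had a median of 19.3 and 20.2 fragments there, against lowest listed numbers of 10 and 11. The equal level was at least 2 times these numbers at 47.1% and 43.0% of the 1035 DKO-only regions with fragment numbers, with the same limit. A fold of at least 8 in both DKO libraries was reached by 86 of the 1067 regions, at least 12 by 15 and at least 20 by 3.

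The exceptional site was chr1:167788481-167792284, where the DKO libraries had peaks of 3804 and 3667 bp. Fold was 68.8 in replicate 1 and 50.4 in replicate 2, from 201 and 177 fragments over the summit. It stood at percentiles 99.8 and 98.7 of the DKO lists and had no peak in either WT library at 0 h or at 72 h. It is the 1 region of the strongest DKO decile that was absent from WT. The next strongest were chr9:63574172-63574999 (fold 23.6 and 23.6), chr4:119593485-119594161 (20.2 and 20.4) and chr1:62880522-62881586 (19.98 and 18.4). They were followed by chr5:139852737-139853906 (15.3 and 20.002), chr8:117799962-117800725 (16.8 and 14.5), chr7:149933236-149934220 (14.1 and 17.9) and chr11:51419931-51420827 (13.1 and 14.1). Apart from the chr1:167788481-167792284 site, these regions held 25 to 58 fragments over the summit.

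The size of both classes depends on requiring both replicates. When 1 library stood for its genotype, leaving out WT replicates 1 and 2 gave 2946 and 3522 WT-only regions, and leaving out DKO replicates 1 and 2 gave 2736 and 3030. The DKO-only counts were 2167, 1610, 2852 and 2264 in the same order, so without DKO replicate 1 the DKO-only class was the larger. With all lists cut to their 29570 strongest peaks there were 1676 WT-only and 1242 DKO-only regions. The WT excess was thus smaller at equal list length.

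At regions shared by all 4 libraries, the order of binding strength was close between genotypes. Each list was ranked by fold over the same 23844 regions and the rank given as a percentile. Pearson's correlation of ranks was 0.921 between the WT replicates and 0.909 between the DKO replicates, against 0.871 to 0.881 for the 4 pairs across genotypes. The median absolute rank difference was 6.15 and 6.76 percentile points between replicates and 7.45 to 7.83 across genotypes. Ranks of different genotypes were therefore further apart than those of replicates in every pair. Summit positions did not separate in this way: at regions with 1 peak in each list, the median summit distance was 35 and 40 bp between replicates and 38 or 39 bp across genotypes.

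Both DKO ranks lay below both WT ranks at 4940 shared regions (20.7% of those compared) and above both at 5264 (22.1%). With arbitrary group labels, 2 ranks against 2 would be apart at a share of 0.333 of regions, both directions together. Most of these regions would thus be counted without any effect of genotype. Since every list was ranked over the same regions, the rank differences sum to 0 and near balance of the directions is largely fixed by the ranking. No single region passed the test: limma on the normal scores of the ranks called 0 regions lower and 0 higher at an adjusted p under 0.05 (0% of 23844), and the smallest adjusted p was 0.163. At an unadjusted p under 0.05 there were 2744 regions, or 11.5%. Other scales did call a small set. On log2 fold centred within each list, limma called 38 regions lower (0.159%) and 19 higher (0.0797%), and with a trended, robust spread on the ranks it called 60 lower (0.252%) and 31 higher (0.13%).

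Large differences were few and lay mostly at regions of middle rank. Among regions whose groups did not overlap, 1063 were lower in DKO by at least 20 percentile points and 918 higher, 327 were lower and 241 higher by at least 30, and 94 lower and 67 higher by at least 40. By decile of mean strength, differences of at least 30 points numbered 89 lower and 73 higher in the fourth decile and 0 in either direction in the weakest and the strongest. A percentile leaves little room to differ at either end. The 3 regions highest in all 4 libraries differed by -0.0042, 0.0042 and -0.0021 points. They were chr4:135475793-135477281 (fold 134 and 119 in WT, 144 and 138 in DKO), chr2:146783964-146785857 (120 and 113, 164 and 151) and chr19:5487605-5491667 (97.6 and 83.8, 107 and 104).

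**Figure D3:**
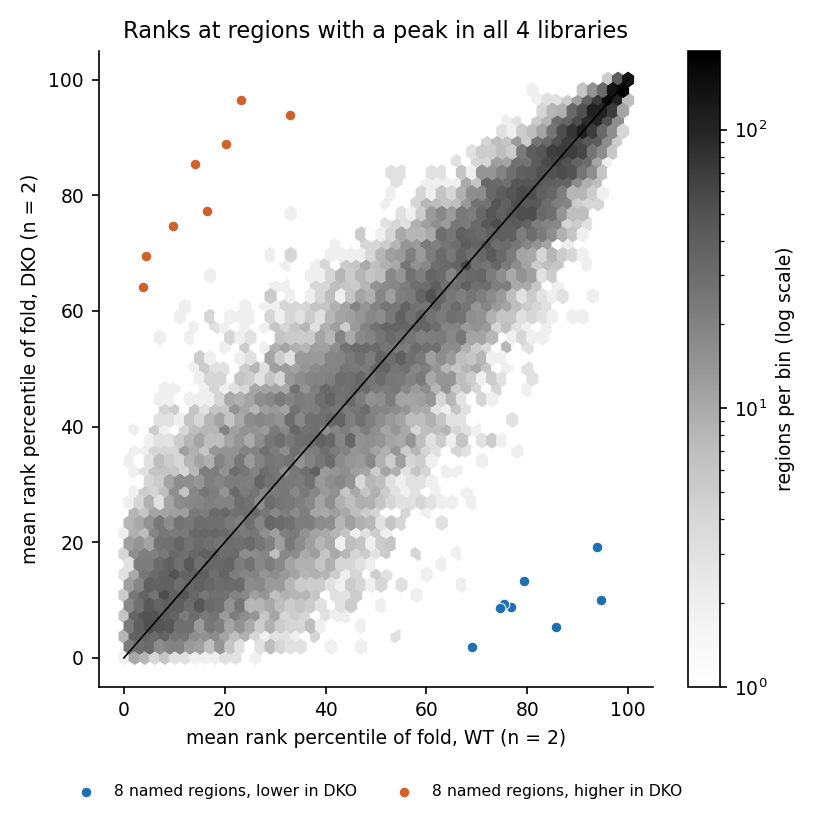
Mean rank percentile of fold in WT (x axis) and DKO (y axis) at the 23844 regions with a peak in all 4 libraries, 2 libraries per mean, with the shade giving the number of regions per bin on a log scale. Most regions follow the diagonal line of equal rank, and the 8 named regions in each direction lie far from it, with mean differences (DKO minus WT) of -84.5 to -65.8 points and of 60.4 to 73.4 points.

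The largest difference towards lower rank in DKO was at chr12:88151195-88152343. WT replicates 1 and 2 had a fold of 38.5 and 31.3 there, from 112 and 121 summit fragments. In DKO the fold was 4.24 and 7.63, from 11 and 13 fragments. Mean fold was 34.9 ± 5.07 (SD, n = 2) in WT and 5.93 ± 2.40 (n = 2) in DKO, and its mean rank differed by -84.5 percentile points. The groups did not overlap, the peak was also narrower in DKO (324 and 609 bp, against 1091 and 1031 bp), and DKO replicate 1 stood just above the fold of 4 at which every list begins. On centred log2 fold the difference was -2.67 with a standard error of 0.27 (limma adjusted p = 0.0242), while on ranks limma gave an adjusted p of 0.163.

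The second, chr17:52607482-52608309, had a fold of 25.2 and 26.1 in WT and 4.47 and 6.02 in DKO, with 93 and 86 summit fragments against 10 and 13. At chr9:100360236-100360995 the fold was 19.8 and 21.7 in WT against 6.88 and 4.44 in DKO. At chr10:28313369-28314268 the WT folds were 20.7 and 15.3 and the DKO folds 4.50 and 4.86. The groups did not overlap at any of these sites, and each DKO fold was under 8. The same held for chr15:97202762-97205133 (25.5 and 19.1 against 6.28 and 6.83), chr8:13986345-13987620 (22.8 and 17.8 against 5.599 and 6.44) and chr17:29417230-29418008 (20.2 and 19.3 against 6.22 and 5.48).

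In the other direction, chr3:60124018-60124830 had a fold of 7.06 and 6.19 in WT and 25.6 and 29.7 in DKO, with 19 and 17 summit fragments against 58 and 54. Mean fold was 6.63 ± 0.614 (SD, n = 2) in WT and 27.6 ± 2.91 (n = 2) in DKO, a rank higher by 71.3 points. On centred log2 fold the difference was 2.005 with a standard error of 0.19 (limma adjusted p = 0.0242). Fragments were fewer in both WT libraries than in both DKO libraries before any scaling for depth. At chr2:32772938-32773914 there were 27 and 37 fragments in WT and 75 and 72 in DKO, and its fold was 5.12 and 4.96 against 17.3 and 20.7.

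Further regions of higher rank in DKO were chr4:119960116-119961058 (fold 6.89 and 5.09 in WT, 22.3 and 20.02 in DKO), chr3:127025227-127026501 (10.9 and 7.89, 32.0 and 44.2), chr11:83348324-83349172 (6.96 and 6.87, 22.3 and 22.6) and chr4:118799499-118800430 (4.22 and 5.34, 15.3 and 18.9). Their groups did not overlap in any case. On centred log2 fold, limma gave adjusted p-values between 0.0242 and 0.0352 for all 16 regions named for a shift in rank, 8 in each direction. On ranks, limma gave the same 16 regions adjusted p-values between 0.163 and 0.171.

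At 3 of these 16 regions fold differed without a like difference in the number of fragments. Fragment numbers divided by the relative depth of each library were 123 and 115 in WT and 131 and 111.2 in DKO at chr7:17458909-17460655, although its fold was 30.9 and 38.7 in WT against 7.78 and 7.01 in DKO. At this region the local background under the summit was 3 and 2 fragments in WT and 16 and 15 in DKO. The summits of the 2 genotypes lay at least 875 bp apart within the region, while replicates agreed within 20 and 66 bp.

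Similarly, chr8:87497885-87501674 had a fold of 7.97 and 7.75 in WT and 43.4 and 41.6 in DKO, with depth-scaled fragments of 78.7 and 76.5 in WT and 89.8 and 85.7 in DKO. Its background was 9 and 9 fragments under the WT summits and 1.09 and 1.08 under the DKO summits, which lay at least 1160 bp away. At chr11:113035249-113038098 the fold was 7.59 and 7.34 in WT against 29.3 and 31.6 in DKO, while the scaled fragments were 74.9 and 72.4 in WT and 63.2 and 67.9 in DKO, in the opposite order. Background there was 9 and 9 fragments in WT and 1.19 and 1.18 in DKO, and the summits were at least 1095 bp apart. In these 3 wide regions the strongest point of the peak thus lay about a kilobase apart between the genotypes, and the local background differed between these points. At the other 13 named regions the nearest WT and DKO summits lay within 166 bp of each other. Single summits could lie further away. At chr15:97202762-97205133 they stood 731 and 697 bp from the region start in WT and 699 and 1827 bp in DKO. At chr10:28313369-28314268 they stood at 531 and 530 bp in WT and 142 and 481 bp in DKO.

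**Figure D4:**
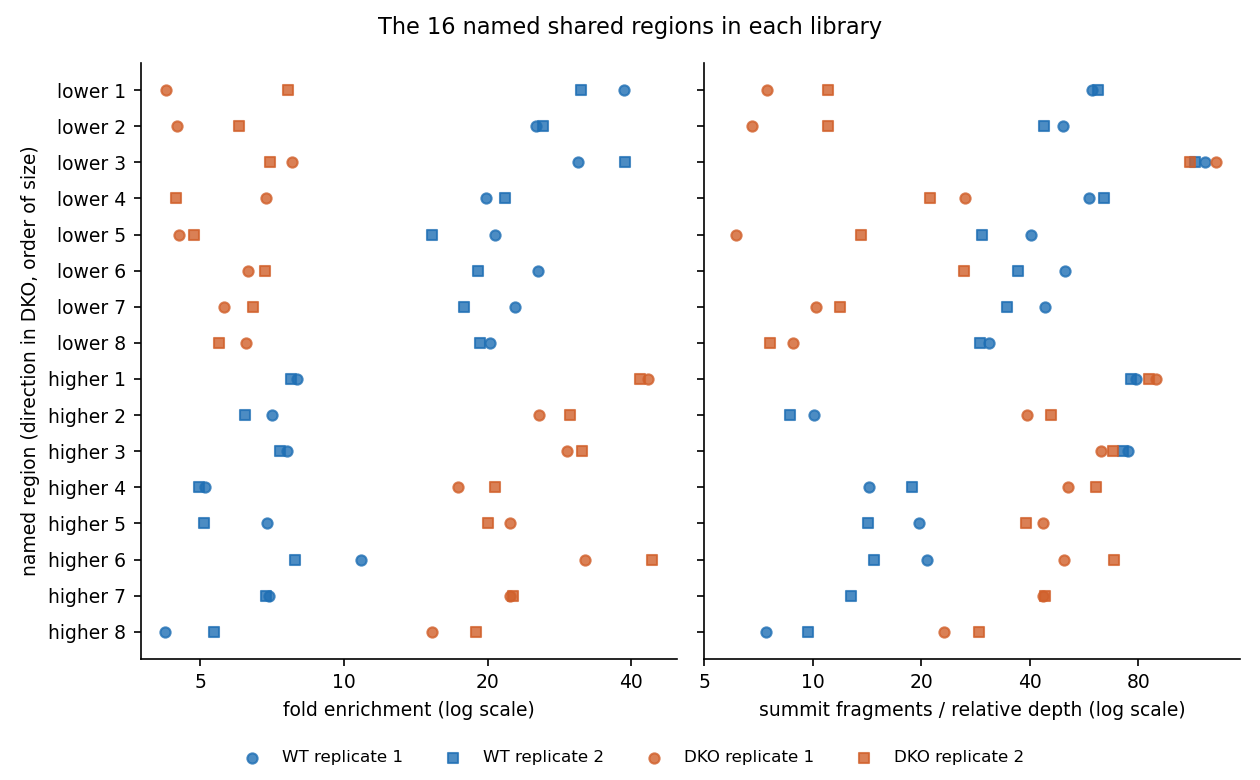
Fold enrichment (left) and summit fragments divided by relative depth (right), both on log axes, for the 16 regions named for a shift in rank, in each of the 4 libraries. Groups are apart in fold at all 16, whereas at the regions marked lower 3, higher 1 and higher 3 the scaled fragments of WT and DKO are close, for example 123 and 115 against 131 and 111.2; at lower 6 and higher 7 the fragment number of 1 library was not fixed by its values and is not drawn.

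Over all shared regions, fold and fragments mostly moved together. A fragment number could be recovered in all 4 libraries at 22807 shared regions. After centring, scaled fragments of both DKO libraries were below both WT libraries at 4481 (19.6%) and above both at 6156 (27%) of them. On ranks of the same scaled fragments the counts were 5013 and 5256, so the imbalance depends on the scale. Of 310 such regions whose DKO ranks were lower by at least 30 points, 296 (95.5%) also had lower scaled fragments without overlap, and of 233 that were higher by at least 30 points, 222 (95.3%) had higher ones. The exceptions numbered 14 and 11. Fragment numbers were solved from the same fold and −log10 p that each list gives, so they are not a separate measurement. Much of this agreement is therefore built into the calculation. Limma on the ranks of scaled fragments, a scale added after seeing the data, called 80 regions lower (0.351%) and 40 higher (0.175%).

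Width differed along with rank at part of the regions. The median absolute difference in centred log2 width was 0.159 between WT replicates, 0.196 between DKO replicates and 0.179 to 0.202 across genotypes. The DKO replicates thus differed by as much as pairs across genotypes. Pearson's correlation of log2 width was 0.845 and 0.813 between replicates and 0.783 to 0.802 across genotypes. Peaks were narrower in both DKO libraries than in both WT libraries, after centring, at 4974 shared regions (20.9%) and wider at 4272 (17.9%). As for ranks, arbitrary group labels would give a share of 0.333, both directions together. Limma called 0 regions on width (0% of 23844, smallest adjusted p 0.333), with 2059 (8.64%) at an unadjusted p under 0.05. Of the 4940 regions lower in rank, 1759 (35.6%) were also narrower and 419 (8.48%) wider. Of the 5264 higher in rank, 1546 (29.4%) were wider and 630 (11.97%) narrower. Across the 23844 regions the correlation of the rank and width differences was 0.374, a description over regions that share the same 4 libraries.

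Among regions narrower in DKO without overlap, the largest difference in log2 width was at chr11:99031919-99033762, where peaks measured 1844 and 1468 bp in WT and 464 and 420 bp in DKO. At chr12:26643321-26644270 they measured 935 and 930 bp in WT and 258 and 263 bp in DKO, with 98 and 89 summit fragments against 20 and 16. At chr10:110650701-110652305 they measured 1389 and 1381 bp against 460 and 341 bp. Fold was also lower in DKO at each of these 3 regions. Peaks were wider in DKO at chr5:149490059-149491444 (306 and 381 bp in WT, 1386 and 1352 bp in DKO) and chr8:123346723-123348469 (486 and 481 bp, 1439 and 1695 bp). The third, chr12:8640133-8643649, had widths of 2550 and 320 bp in WT and 3072 and 2936 bp in DKO, so its WT replicates differed more from each other than WT replicate 1 did from DKO.

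A minority of genotype-specific regions had a region of the same class as nearest neighbour, though more often than all regions did. The nearest other region of a WT-only region was itself WT-only in 286 of 1908 cases (14.99%), while 5.09% of all regions had a WT-only nearest neighbour. For DKO-only regions the nearest neighbour was DKO-only in 64 of 1067 cases (5.998%), against 2.997% over all regions. The nearest neighbour was a shared region for 51.0% of WT-only and 59.8% of DKO-only regions, against 63.2% over all regions. These shares are descriptions over regions of the same libraries, and equally weak regions of other presence patterns were not set beside them.

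Shared regions close to DKO-only regions leaned to higher ranks in DKO. Within 25 kb of a DKO-only region, 533 of 1628 shared regions (32.7%) had higher ranks in both DKO libraries and 263 (16.2%) lower ranks, beside 22.1% and 20.7% of all shared regions. The share that was higher decreased with distance, to 28.2% at 25 to 50 kb, 25.97% at 50 to 100 kb, 22.2% at 100 to 500 kb and 18.8% beyond 500 kb. The median rank difference ran from 2.28 points within 25 kb to -0.45 points beyond 500 kb. Between replicates, the median difference within 25 kb was 0.15 points for WT (replicate 2 minus 1) and -0.01 for DKO. The choice of DKO-only regions treats both replicates of a genotype alike, so values near 0 follow from it. They are therefore no control for the lean between genotypes.

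Near WT-only regions the lean was small. Within 25 kb of a WT-only region, 534 of 2226 shared regions (23.99%) had lower ranks in both DKO libraries and 494 (22.2%) higher ranks, and the median difference was 0.10 points. Differences of at least 20 points were lower in 7.23% and higher in 4.63%, beside 4.58% and 3.98% of all shared regions. Whether the 2 classes of specific regions differ in this respect was not tested.

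**Figure D5:**
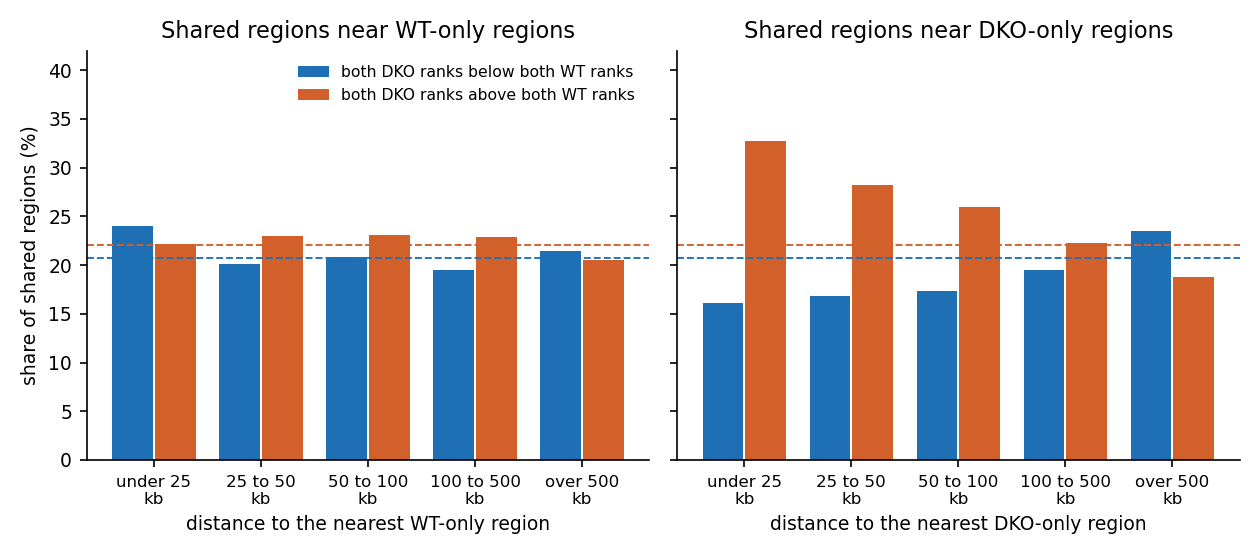
Share of shared regions whose DKO ranks both lay below (blue) or above (orange) both WT ranks, by distance to the nearest WT-only region (left) or DKO-only region (right), with dashed lines for all shared regions (20.7% and 22.1%). Near DKO-only regions the orange bars fall from 32.7% within 25 kb to 18.8% beyond 500 kb, while the bars near WT-only regions stay between 19.5% and 23.99%.

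Adjacent shared regions differed between genotypes in a weakly similar way. The correlation of the DKO minus WT rank difference between neighbours was 0.098 over 23825 pairs, and it was 0.092 for pairs under 25 kb apart and 0.092 for pairs over 500 kb apart. The same correlation was 0.004 for the difference between WT replicates and -0.005 for that between DKO replicates. The value for genotype is small and did not fall off with distance, and its dependence on base composition or other shared features of neighbours was not tested.

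The 500 kb windows described next were chosen for holding the most specific regions, so their density follows from the choice. Of all regions with peaks in each WT library 6.89% were WT-only. For DKO the like share was 4.02%. At chr6:98981049-99436524, 10 of the 19 regions with peaks in each WT library were WT-only, with folds of 4.02 to 9.48 in WT replicate 1 and 4.14 to 8.30 in replicate 2. The 5 shared regions of the window all had a lower mean rank in DKO, by -7.12 to -34.1 points, and 4 of them without overlap. The largest shift was at chr6:99338449-99339620, where fold was 10.3 and 11.97 in WT against 5.599 and 6.44 in DKO. Other sites of the window were not lower in DKO. The DKO-only region chr6:99370557-99370924 had a fold of 7.94 and 7.63. At chr6:99233027-99233568 the fold was 8.07 in WT replicate 1 and 8.37 and 8.17 in DKO, with no peak in WT replicate 2. At chr6:99220023-99220405 it was 4.89 in WT replicate 2 and 4.07 and 7.63 in DKO, with no peak in WT replicate 1.

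In the other WT-only windows the shared regions were not all lower in DKO. At chr9:116000319-116203807, 9 of 14 regions were WT-only and the 2 shared regions differed by -7.96 and 18.4 points. At chr10:20602512-21056346, 9 of 17 regions were WT-only, and its 8 shared regions ranged from -26.1 to 13.2 points with a median of 0.31. Of these 8, 3 ranked lower in DKO without overlap and 1 higher. Within this window, the WT-only regions from chr10:20943196-20943592 to chr10:20974249-20975117 lay close together with folds up to 9.82 and 16.6, while chr10:20667947-20669055 remained strong in every library (32.7 and 28.8 in WT, 35.5 and 40.4 in DKO). The shared regions nearest to this group were chr10:20877307-20879048, chr10:20897985-20899176 and chr10:20908776-20909398, at -11.4, -26.1 and -23.4 points. The other shared regions of the window lay between -1.37 and 13.2 points.

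Windows of DKO-only regions were more uniform in 2 of 3 cases. At chr4:119593485-119996416, 9 of the 17 regions with peaks in each DKO library were DKO-only, and all 7 shared regions had higher ranks in both DKO libraries, by 17.9 to 64.8 points. The strongest DKO-only region there was chr4:119593485-119594161, named above, and the largest shift at a shared region was at chr4:119960116-119961058. Across this window of 402932 bp every shared region thus ranked higher in DKO.

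At chr11:83343766-83542850, 7 of 13 regions were DKO-only and all 5 shared regions were higher in both DKO libraries, by 18.2 to 60.7 points with a median of 49.3. Besides chr11:83348324-83349172, these included chr11:83363425-83364281 (fold 10.1 and 5.597 in WT, 19.1 and 23.2 in DKO) and chr11:83452799-83454303 (10.8 and 8.57, 26.4 and 24.7). The third window, chr2:128015204-128329175, held 6 DKO-only among 16 regions, but its 7 shared regions were higher by only 1.05 to 6.57 points and 2 of them without overlap. It also held 2 WT-only regions.

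Libraries of the same genotypes cultured for 72 h in IL-7 plus IL-15, 2 per genotype, did not enter the choice of any region above. Their lists were of unequal length, and the WT lists held 65.2% and 86.9% of the shared regions while the DKO lists held 40.9% and 62.7%. Each share below is read beside these. Of all 1908 WT-only regions, the WT lists of 72 h held 12.4% and 40.7% and the DKO lists 0.524% and 2.41%. At 195 of them (10.2%) each WT library but no DKO library had a peak, beside 7.60% of all shared regions, and the reverse occurred at 1. The reverse was rare everywhere, at 4 of all 23844 shared regions. Of all 1067 DKO-only regions, the WT lists held 3.56% and 16.96%, more than the 1.87% and 5.34% of the DKO lists. At 5 of them each DKO library but no WT library had a peak, and at 13 (1.22%) the reverse held. Of the 299 WT-only regions with a fold of at least 8, the WT libraries of 72 h listed 30.1% and 66.2%, and the DKO libraries 0.669% and 3.01%. At 83 of them (27.8%) the peak was listed for each WT library and for no DKO library, and the reverse occurred at 0. Of the 86 DKO-only regions with a fold of at least 8, the WT lists of 72 h held 11.6% and 23.3% and the DKO lists 9.30% and 24.4%, so the genotypes overlapped. At 4 of these 86 each DKO library but no WT library had a peak, and at 2 the reverse held.

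Shared regions that were lower in DKO at 0 h were also more often missing in DKO at 72 h. Of the 327 regions lower by at least 30 points, the WT lists held 67.9% and 93.0%, and the DKO lists 14.98% and 38.8%. At 100 of them (30.6%) each WT library but no DKO library had a peak, beside 7.60% of all shared regions. Of the 241 regions higher by at least 30 points, the WT lists held 39.0% and 77.6% and the DKO lists 27.4% and 54.8%, and 11 (4.56%) were listed for each WT but no DKO library. With 2 libraries against 2 an exact two-sided permutation test cannot give a p under 0.333 for such shares.

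At the 9365 regions with a peak in all 8 lists, ranks could be compared at 72 h as well. DKO ranks at 72 h lay below both WT ranks at 18.8% and above both at 18.8% of these regions. Arbitrary group labels would give a share of 0.333, both directions together. Among the 455 that were lower by at least 20 points at 0 h, 152 (33.4%) were lower at 72 h without overlap and 43 (9.45%) higher. Among the 390 that were higher by at least 20 points at 0 h, 91 (23.3%) were higher at 72 h and 55 (14.1%) lower. The direction at 72 h was that of 0 h more often than the reverse in both sets. The median difference at 72 h was -6.43 points in the first set and 3.62 in the second. Since the sets were chosen for a large difference at 0 h, a smaller median in other libraries follows from that choice.

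Single sites differed in how far they kept their change. The WT-only region chr19:3730853-3731869 had a fold of 10.98 and 18.7 in WT at 72 h and no DKO peak, and chr12:88151195-88152343, the region lowest in DKO at 0 h, had a fold of 17.9 and 19.8 in WT and no DKO peak. The DKO-only site chr1:167788481-167792284 kept a fold of 39.3 and 59.5 in DKO. In contrast, chr9:63574172-63574999, the second DKO-only region, had no peak in any library at 72 h. At chr8:87497885-87501674, whose summits differed between genotypes at 0 h, the WT libraries had a fold of 20.6 and 25.03 after 72 h and the DKO libraries 12.8 and 17.9.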

How the data were processed

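Peak lists of 4 CTCF CUT&RUN libraries of naive CD8+ T cells (2 WT, 2 DKO), the 4 libraries of 72 h and the IgG library were used. The tools named in the submitters' processing notes are MACS2 2.1.1, Bowtie2 2.2.5 and FastQC, and the build is mm9. There is 1 deposited list per library. No source used here gives the control, the calling thresholds or any later filter, but every deposited CTCF list begins at a fold of 4. Fold, as deposited, is the authors' ratio of a peak to the background around it. The whole-number score, the −log10 p and the −log10 q were also deposited by the authors as their peak caller wrote them, and the deposited summit is a distance in bp from the start of the peak.

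Peaks on chromosomes 1 to 19 of the 4 naive lists were merged at an overlap of at least 1 bp, and the peak of highest fold stood for its list. Shared regions were ranked by fold within each list over the same 23844 regions. Normal scores of ranks, and log2 widths centred per list, were tested with limma 3.58.1 in R 4.3.3 with Benjamini-Hochberg adjustment and a threshold of 0.05. The scripts were tested on simulated data. "Without overlap" means that both values of one group exceed both of the other.

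Fragments over a summit were solved from fold and −log10 p, assuming MACS2's Poisson test with a pseudocount of 1 and each library scaled to its control, with a tolerance of 0.002 on −log10 p. A single solution was found for 98.9% and 98.8% of WT and 98.0% and 99.9% of DKO peaks. A list with no peak at a site shows only that none was listed.

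Named regions were the 8 of each specific class with the highest lower percentile of the 2 libraries, the 8 shared regions of largest rank difference in each direction among those without overlap (since limma called none), 3 for width in each direction, the 3 densest 500 kb windows per class and the 3 highest in all 4 lists. Single sites inside the windows were chosen after their values were seen. Members and lists were chosen with earlier results of these data known. Genes and sequences near the regions were not analysed, since a genome or annotation of mm9 was not used here. Alternatives were a −log10 q of at least 5, overlap of 50% of the shorter peak, summits within 100 bp, equal list lengths, a fold of at least 8, addition of X, ranks of −log10 p, rank percentiles, centred log2 fold, a replicate block, 1 peak per list, a trended robust spread and each library left out. Ranks of depth-scaled fragments and centred log2 fold with the replicate block were added after seeing the data.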

Additional observations from a re-analysis of the deposited data

How the results depend on the processing

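WT-only and DKO-only counts kept within 1.5 times of 1908 and 1067 with a −log10 q of at least 5, overlap of 50% of the shorter peak, summits within 100 bp, equal list lengths and addition of X. With a fold of at least 8 in both libraries they were 299 and 86. With single libraries left out they ranged from 2736 to 3522 and from 1610 to 2852. Limma called 0 shared regions lower and 0 higher in rank, and 0 narrower or wider, in every setting tried except 4 on rank: centred log2 fold (38 lower, 19 higher), the same with a replicate block (49 and 28, added after seeing the data), a trended robust spread (60 and 31) and ranks of depth-scaled summit fragments (80 and 40, added after seeing the data). On ranks with a replicate block it called 0 and 0, and the replicate numbers come from the titles alone, with no shared animal or day stated. With 1 library left out, the number of regions without overlap rose to between 8374 and 8811 lower in rank, 8862 and 9300 higher, 8621 and 9823 narrower and 7565 and 8457 wider, since 1 value is more easily apart from 2. The 16 named rank shifts kept their direction in each setting that gave them a value, except at chr11:113035249-113038098, where the difference in normal scores was -0.38 on depth-scaled fragments. At chr8:87497885-87501674 that difference was 0.0035, against 2.56 on ranks of fold. No value was given for 5 of the 16 at a −log10 q of at least 5, for 2 on depth-scaled fragments and for 1 with 1 peak in each list. Depth limits the weakest regions: 1 fragment is worth a fold of 0.338 and 0.327 in WT and 0.43 and 0.538 in DKO.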
